A study of Mus musculus with 14 samples.

Results

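The genes of collagen and laminin chains were followed in mouse yolk sac at embryonic day 9.5, in cells cut out by laser from frozen sections as primitive erythroid precursors. These precursors form the embryo's earliest wave of red cells. A gene was taken as a member when its platform symbol was Col, a number, a and a number, or Lama, Lamb or Lamc and a number. This gave 46 of the 12393 genes measured, 36 of them collagens and 10 laminins, each read through its brightest probe set, the 1 with the highest mean over all arrays. By chain type there were 9 fibrillar collagens, 6 chains of collagen IV, 3 of collagen VI, 9 fibril-associated collagens, 9 other collagens, 5 laminin alpha, 3 laminin beta and 2 laminin gamma chains. All 46 had their gene identifier in RefSeq (GRCm38.p6).

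The arrays held 8 wild-type samples, 3 samples without the transcription factor KLF1 (KLF1-/-) and 3 whose labels give a loss of its relative KLF2 as well (KLF1-/- KLF2-/-), and the strain of all 14 was given as FVB/N. Embryos came from KLF1+/- or KLF1+/- KLF2+/- dams and were genotyped from the tail, and the mutations are present throughout the embryo as far as the labels say. Each replicate pooled 2 to 4 yolk sacs taken from 2 litters, and the sources used here do not say whether replicates shared litters. Values are log2 expression, so a difference of 1 is a doubling, and errors are SD over arrays unless called SE.

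Collagens are triple helices of 3 chains. Fibrillar collagens build the fibres of loose connective tissue, fibril-associated collagens coat them, and collagen IV forms the sheet-like network of basement membranes. Laminins are crosses of 1 alpha, 1 beta and 1 gamma chain and form the other network of a basement membrane. In the yolk sac a mesoderm layer with blood vessels and mesenchyme faces an outer endoderm layer, and a basement membrane lies between them. Red cell precursors are not known as the main source of these proteins.

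The arrays with the KLF1-/- KLF2-/- label are called the labelled double nulls. Klf1 averaged 10.67 ± 0.63 over the 8 wild-type arrays, 9.45 ± 0.39 over the 3 KLF1-/- arrays and 9.15 ± 0.53 over the 3 labelled double nulls. Klf2 averaged 6.25 ± 0.25, 6.22 ± 0.28 and 6.69 ± 0.32 in that order, so its signal was not lower where its loss is labelled. The sources do not place these probe sets relative to the deleted sequence, and the labels were not checked by either gene. The captured material carried visceral endoderm transcripts besides erythroid ones, and marker counts for other yolk sac cell types were less clear. All 11 measured erythroid markers had a mean above the median of all gene means, and so did 13 of 14 visceral endoderm markers. The counts were 11 of 18 for mesenchyme and mesothelium, 9 of 15 for endothelium and 7 of 12 for macrophage markers. They were 3 of 8 for megakaryocyte and 2 of 7 for parietal endoderm markers. That median splits all genes evenly and is not a detection limit. The counts of these 5 lists therefore do not decide whether such cells were captured. The mean of the 18 mesenchyme markers ran from 7.15 to 7.70 over the wild-type arrays, from 7.18 to 7.61 in KLF1-/- and from 7.49 to 7.56 in the labelled double nulls. In such mixed material, fewer cells of a type and less RNA per cell cannot be told apart.

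Most collagen and laminin genes were dim and a small set was bright. The mean of 18 of the 46 exceeded the median of all gene means, 6.99, and the mean of 10 reached the 75th percentile, 8.39. Those 10, called bright here, were the fibrillar chains Col1a1, Col1a2, Col3a1, Col5a1 and Col5a2, the collagen IV chains Col4a1 and Col4a5, Col9a1, Col18a1 and, as the single laminin, Lamb1. The type I, III and V chains of loose connective tissue were thus all bright, except Col5a3. The cartilage collagen Col2a1 lay at or below the median of all genes, while Col9a1, also known from cartilage, was among the bright genes. Of the 10 laminin chains, 2 exceeded that median, Lamb1 and Lama5. Signals of different probe sets depend on the probes as well as on the RNA, so these ranks sort signals and not amounts of RNA.

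Col4a1 and Col4a2 encode the pair of chains of the commonest collagen IV trimer, and the genes lie head to head. Their promoter windows, 250 bases before to 50 bases after the start in RefSeq on GRCm38.p6, are shown for this arrangement. Whether it bears on the levels of the chains was not tested. The Col4a1 window lies at chr8:11312777-11313076 on the minus strand and the Col4a2 window at chr8:11312555-11312854 on the plus strand. The start sites, 11312826 for Col4a1 and 11312805 for Col4a2, are 21 bases apart, and the annotated transcripts overlap between them. The windows overlap by 78 bases, printed in capitals, which are the same DNA read on opposite strands. These bases lie at or past the start of Col4a1, of Col4a2 or of both.
Col4a1: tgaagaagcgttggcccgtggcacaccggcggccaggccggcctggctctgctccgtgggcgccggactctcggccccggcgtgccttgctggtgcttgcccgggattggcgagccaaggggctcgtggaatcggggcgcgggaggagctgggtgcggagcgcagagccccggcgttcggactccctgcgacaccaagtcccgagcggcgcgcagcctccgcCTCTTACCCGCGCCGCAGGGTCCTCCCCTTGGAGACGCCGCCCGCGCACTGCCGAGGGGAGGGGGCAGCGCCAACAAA
Col4a2: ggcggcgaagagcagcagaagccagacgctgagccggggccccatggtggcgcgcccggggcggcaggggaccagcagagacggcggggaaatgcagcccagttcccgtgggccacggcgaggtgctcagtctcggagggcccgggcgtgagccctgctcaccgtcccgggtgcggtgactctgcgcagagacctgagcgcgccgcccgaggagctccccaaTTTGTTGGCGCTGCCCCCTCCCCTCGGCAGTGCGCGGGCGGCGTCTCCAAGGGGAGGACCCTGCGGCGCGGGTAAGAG

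KLF1 and KLF2 bind CACCC-type elements, so the windows were searched on both strands for CCACACCC and for the looser CCNCNCCC, with overlapping matches counted separately. RefSeq windows were found for 32 of the genes, 36 windows in all. CCNCNCCC was in 30 of the 36 (83.3%, 26 genes) and in 49.5% of the 32851 windows of all genes. The median GC content was 59.3% in the member windows and 52.7% in all windows. CCACACCC was in 1 of the 36 (2.78%), that of Col15a1, and in 3.56% of all windows. The Col5a1 window, chr2:27886175-27886474 on the plus strand, held 7 matches to CCNCNCCC at a GC content of 75%, and the Col3a1 window, chr1:45311288-45311587 on the plus strand, held 0 at 37.7%. Both are printed as the ends of that range among the bright fibrillar chains with a window, with matches in capitals. A match is a run of letters and not a binding site.
Col5a1: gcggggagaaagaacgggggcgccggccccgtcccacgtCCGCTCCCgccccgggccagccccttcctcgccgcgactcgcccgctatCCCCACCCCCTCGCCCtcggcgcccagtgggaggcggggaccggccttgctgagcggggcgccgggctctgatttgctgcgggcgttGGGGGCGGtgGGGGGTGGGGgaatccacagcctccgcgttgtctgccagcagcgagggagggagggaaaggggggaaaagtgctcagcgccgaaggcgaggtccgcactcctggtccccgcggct
Col3a1: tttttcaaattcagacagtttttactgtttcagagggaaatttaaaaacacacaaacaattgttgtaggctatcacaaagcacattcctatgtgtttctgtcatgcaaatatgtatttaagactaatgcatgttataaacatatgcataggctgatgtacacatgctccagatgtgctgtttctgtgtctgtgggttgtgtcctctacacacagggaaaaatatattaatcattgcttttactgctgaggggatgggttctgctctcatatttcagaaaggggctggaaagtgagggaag

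Levels of the bright genes are given first by array. Col1a1 and Col1a2 encode the chains of type I collagen, the main fibre of connective tissue. In wild type, Col1a1 ran from 10.30 through a median of 10.84 to 11.92. It was 11.07, 11.12 and 10.60 in KLF1-/- replicates 5, 6 and 8, and 11.33, 11.37 and 10.99 in labelled double-null replicates 13, 14 and 15. The mutant arrays all lay inside the wild-type range, whose top was replicate 1 alone. Col1a2 ran from 8.98 through 9.81 to 10.84 in wild type. Its KLF1-/- arrays were at 9.88, 10.63 and 9.20 and its labelled double nulls at 10.43, 10.93 and 10.04, of which replicate 14 was above every other array.

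Col3a1, the chain of type III collagen, ran from 11.30 through 11.999 to 12.86 in wild type. It was 11.72, 12.65 and 11.47 in KLF1-/- and 12.15, 12.31 and 11.90 in the labelled double nulls, again inside the wild-type range. The type V chains, which start and limit the width of type I fibres, behaved alike. Col5a1 ran from 8.93 through 9.10 to 9.55 in wild type, and was 9.32, 9.52 and 8.95 in KLF1-/- and 9.36, 9.41 and 9.35 in the labelled double nulls. Col5a2 ran from 10.20 through 10.65 to 11.34, and was 10.37, 11.32 and 10.43 in KLF1-/- and 10.95, 11.13 and 10.62 in the labelled double nulls. In both chains KLF1-/- replicate 6 was as high as the upper wild-type arrays while another KLF1-/- array was near the wild-type floor.

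The basement membrane chains varied as much. Col4a1 ran from 9.58 through 10.20 to 10.90 in wild type, and was 10.44, 11.21 and 9.92 in KLF1-/- and 10.73, 10.65 and 10.18 in the labelled double nulls. Col4a5, on the X chromosome and paired there with Col4a6, ran from 7.65 through 8.16 to 9.76 in wild type. It was 7.75, 9.06 and 8.03 in KLF1-/- and 8.99, 8.81 and 7.74 in the labelled double nulls. Of the 10 bright genes it had the widest wild-type range. Lamb1, the beta chain of most early laminins, ran from 10.30 through 10.84 to 11.53, and was 10.40, 11.77 and 10.88 in KLF1-/- and 11.08, 10.98 and 10.70 in the labelled double nulls. On these probe sets KLF1-/- replicate 6 was the highest of all 14 arrays for Col4a1 and Lamb1. The spread of Col4a1 depended on the probe set. Its other probe set, with a mean of 9.81, was 9.79 ± 0.22 in wild type and 9.85 ± 0.01 in KLF1-/-. On the set used the SDs were 0.54 and 0.65.

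Col9a1, a fibril-associated chain best known from cartilage, ran from 8.26 through 9.04 to 9.48 in wild type, and was 8.94, 9.28 and 8.44 in KLF1-/- and 9.42, 9.45 and 8.83 in the labelled double nulls. Col18a1, a basement membrane collagen from which endostatin is cut, ran from 8.86 through 9.20 to 9.57, and was 9.31, 9.88 and 9.11 in KLF1-/- and 9.52, 9.56 and 9.31 in the labelled double nulls. For all 10 bright genes the 3 genotypes overlapped in both comparisons with wild type.

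**Figure D1:**
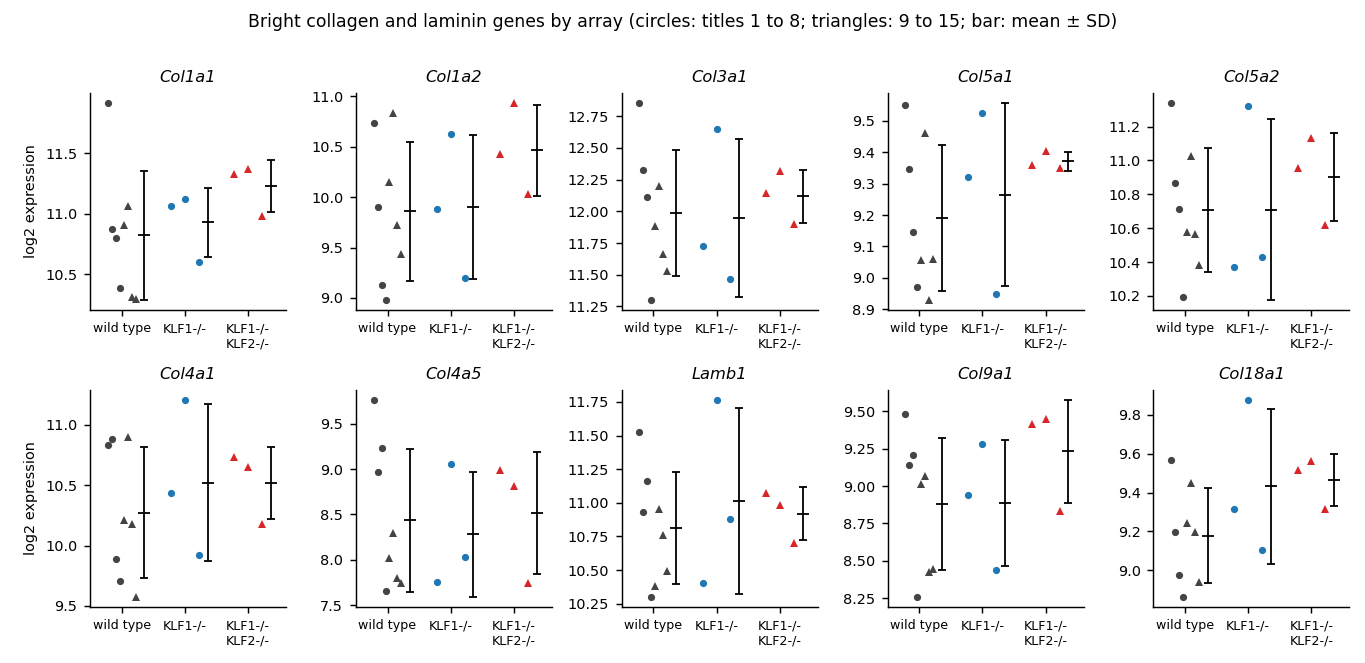
Each panel plots 1 bright collagen or laminin gene, with log2 expression on the vertical axis and the 14 arrays by genotype. Points are arrays (circles, titles numbered 1 to 8; triangles, 9 to 15) and bars are mean ± SD. Wild-type arrays span as much as 2.11 (Col4a5), and the mutant arrays fall among them, apart from KLF1-/- replicate 6 for Col4a1, Lamb1 and Col18a1 and replicate 14 for Col1a2.

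No collagen or laminin gene passed the test between KLF1-/- and wild type. At an adjusted p under 0.05 over all genes (limma, Benjamini-Hochberg), 0 of 46 were called, beside 5 of 12393 genes (0.0403%). The count was also 0 of 46 at an unadjusted p under 0.05, where the share of all genes was 2.03%, and 0 of 46 had KLF1-/- arrays apart from all wild-type arrays (0.573% of all genes). Differences ran from −0.40 for Lama5, the alpha chain of the main laminins of late basement membranes, to 0.30 for Col4a2. The median was −0.005 beside 0.007 over all genes, and 21 of 46 were above 0 (52.1% of all genes). The 95% interval of the difference lay within ±1 for 44 of 46 and reached past it for Col11a1 and Col4a5. Array weights, an alternative whose estimation did not converge, called 1 of the 46 here, Col4a3, and 10 and 27 in the comparisons that follow, beside 353, 2347 and 6029 of all genes.

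Among the bright genes, KLF1-/- minus wild type was 0.11 for Col1a1 (SE 0.278), 0.04 for Col1a2 (SE 0.396), −0.04 for Col3a1 (SE 0.297), 0.25 for Col4a1 (SE 0.321) and 0.20 for Lamb1 (SE 0.278). It was largest for Col18a1, at 0.25 (SE 0.176, interval −0.12 to 0.63, adjusted p = 0.99982 in limma). The 10 intervals together ran from −1.12 to 0.94, a range of 0.460 to 1.91 as a ratio. Of the 10, 8 were above 0 with a median of 0.06, beside 64.3% and a median of 0.06 among the 3099 genes at or above the 75th percentile. The sign of that set was not stable. Without KLF1-/- replicate 6, 2 of 10 were above 0 and the median was −0.18. Leaving out wild-type replicate 4 gave 5 of 10 (median −0.01), and leaving out replicate 12 gave 5 (0.007). Leaving out wild-type replicate 1 gave 10 (0.15). Quantile normalization gave 5 (−0.0004), and the mean of the probe sets gave 5 (0.0009). On their dimmer probe sets the bright fibrillar chains were all below 0, from −0.28 for Col1a2 to −0.05 for Col1a1. The other bright genes were above 0 there, from 0.03 to 0.34. With the number run as a block in the fit, 5 of 10 were above 0 and the median was −0.03.

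In the labelled double nulls the bright genes were on the high side of wild type, but none passed the test. Again 0 of 46 were called at an adjusted p under 0.05 in limma, beside 8 of 12393 genes (0.0646%). Col1a2 differed by 0.60 (SE 0.396, interval −0.24 to 1.45), Col1a1 by 0.41 (SE 0.278, interval −0.19 to 1.00) and Col9a1 by 0.35 (SE 0.262, interval −0.21 to 0.91). The 7 others were between 0.08 for Col4a5 and 0.29 for Col18a1. All 10 were above 0, with a median of 0.22, beside 60.0% and a median of 0.04 among genes at or above that percentile. Under every setting with a single value per gene, 9 or 10 of the 10 stayed above 0, and with a term for the number run the median was 0.30. The size depended on the probe set. On their dimmer probe sets Col1a2 differed by 0.13, Col1a1 by 0.07 and Col9a1 by −0.17. These 10 genes share the arrays, and every pair of them had a positive correlation over the 14 arrays, as given below, so their common sign is a description.

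Markers of other cells were read in the same comparison, and 0 of them were called in limma. Of the 18 mesenchyme and mesothelium markers, 12 were above 0 (52.1% of all genes), with a median of 0.14. They ran from −0.28 for Thy1 to 0.78 for Tbx20, the ends of the list. Of the endothelium markers 11 of 15 were above 0, with a median of 0.10. Of the visceral endoderm markers 7 of 14 were above 0, and of the parietal endoderm markers 3 of 7. The mean of the 8 megakaryocyte markers ran from 6.92 to 7.23 in wild type and from 7.51 to 7.80 in the labelled double nulls. Their differences ran from 0.0007 for Gp1bb to 1.53 for Ppbp, with 8 of 8 above 0 and a median of 0.40. The mean of the 12 macrophage markers ran from 6.73 to 7.11 and from 7.16 to 7.24. Their differences ran from −0.16 for C1qc to 1.42 for Laptm5, with 8 of 12 above 0 and a median of 0.17. The part of these markers in the collagen values was not tested.

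Over all 46 genes the labelled double nulls were balanced around wild type in the fit over all 14 arrays. The median difference was 0.004 beside 0.007 over all genes, and 23 of 46 were above 0 (52.1% of all genes). That count was not stable. With a term for the number run it was 31 of 46 (56.1% of all genes). Without replicate 14 it was 33 (54.0%), and without replicate 15 it was 19 (48.8%). By class, 6 of 9 fibrillar chains were above 0 (median 0.18), 4 of 6 collagen IV chains (median 0.04), 2 of 3 collagen VI chains (median 0.07), 5 of 9 fibril-associated collagens (median 0.02) and 3 of 9 other collagens (median −0.02). The laminins were on the low side, with 3 of 10 above 0 and a median of −0.09. The 95% interval lay within ±1 for 41 of 46.

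**Figure D2:**
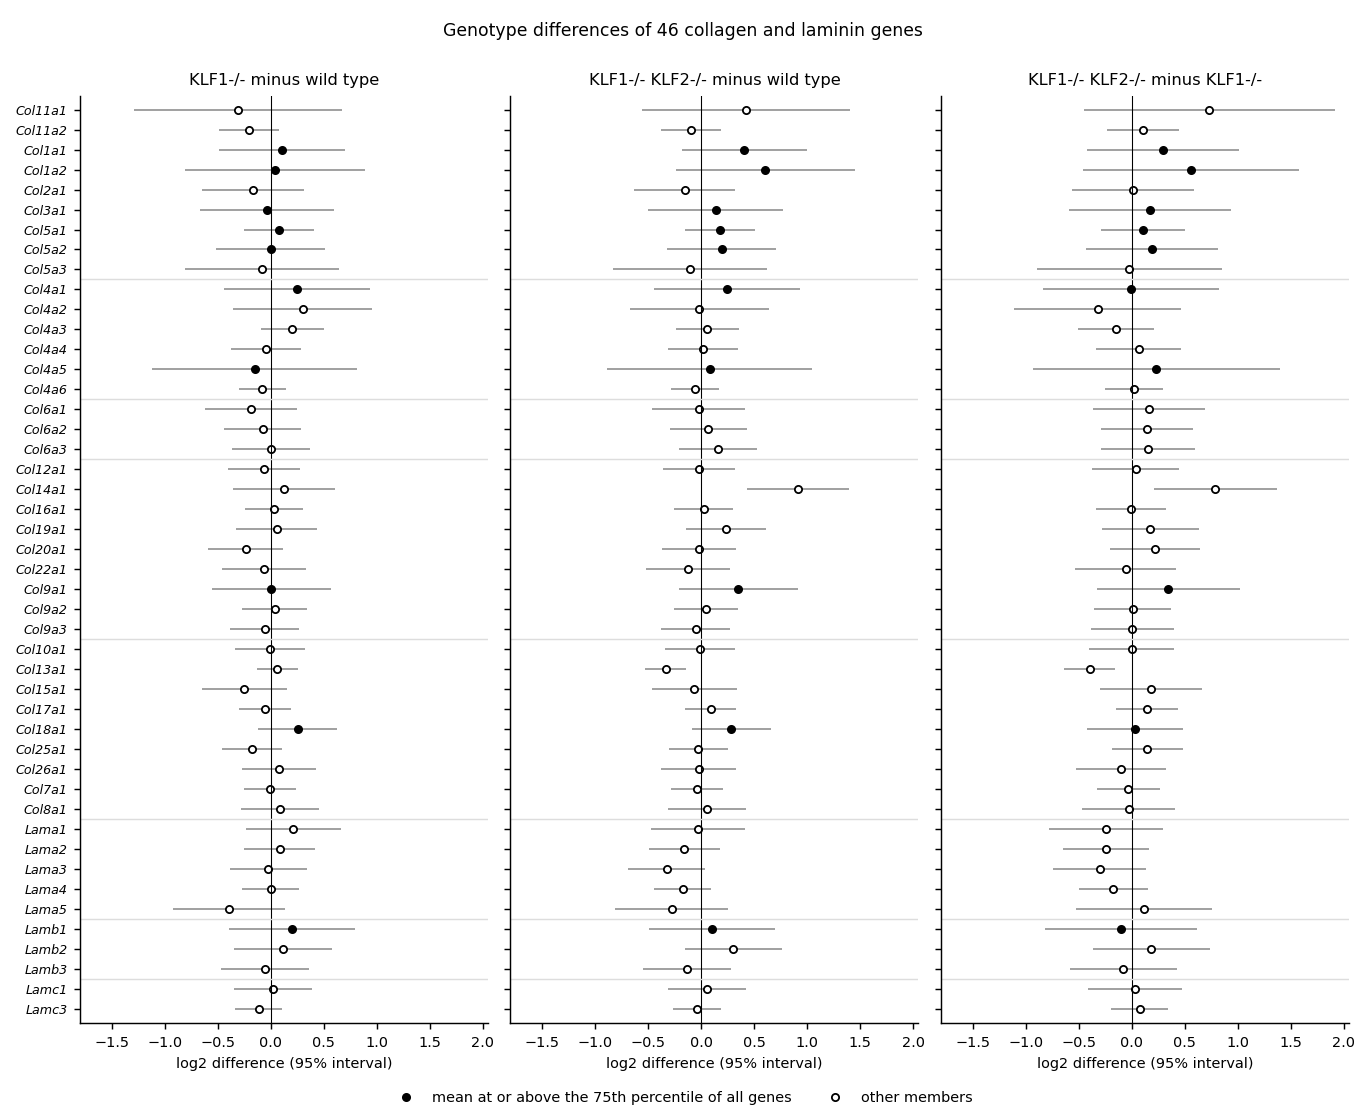
Log2 differences (points) with 95% intervals (lines) of the 46 genes in 3 genotype comparisons, grouped by chain type; filled points are the 10 bright genes. Most intervals cross 0 in every panel, and the exceptions are Col14a1 on the high side and Col13a1 on the low side in both comparisons of the labelled double nulls.

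Col14a1 and Col13a1 stood apart from the other chains in the labelled double nulls. Both had an unadjusted p under 0.05, as 2 of the 46 against 2.32% of all genes, and the same 2 were the genes whose arrays did not overlap with wild type (0.75% of all genes). Col14a1 encodes collagen XIV, a fibril-associated collagen of embryonic connective tissue. It ran from 6.84 through 7.35 to 7.74 in wild type, was 7.24, 7.90 and 7.20 in KLF1-/-, and was 8.06, 8.72 and 7.92 in the labelled double nulls. Every labelled double-null array was thus above all 11 others. The difference from wild type was 0.92 (SE 0.225, interval 0.44 to 1.40, unadjusted p = 0.00108, adjusted p = 0.442 in limma).

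That difference depended on the probe set. The other Col14a1 probe set, dimmer at 6.26 ± 0.16 in wild type, was 6.36 ± 0.07 in the labelled double nulls, 0.11 higher. With the mean of both sets the difference was 0.51, without replicate 14 it was 0.68, and with a term for the number run it was 0.76, while wild-type arrays 9 to 12 were 0.31 above arrays 1 to 4 for the brightest set. Between the labelled double nulls and KLF1-/- the difference was 0.79 (SE 0.272, unadjusted p = 0.0112, adjusted p = 0.99995 in limma), and with the block 0.48.

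Col13a1 encodes collagen XIII, a membrane-spanning collagen, and its only probe set lay below the median of all gene means. It ran from 6.64 through 6.78 to 6.85 in wild type, was 6.79, 6.96 and 6.74 in KLF1-/-, and was 6.51, 6.38 and 6.41 in the labelled double nulls. Here every labelled double-null array was below all 11 others. The difference from wild type was −0.34 (SE 0.0917, interval −0.53 to −0.14, unadjusted p = 0.00247, adjusted p = 0.626 in limma), and that from KLF1-/- was −0.40 (SE 0.111, unadjusted p = 0.00281, adjusted p = 0.99995). A term for the number run left them at −0.34 and −0.40. Col13a1 and Col14a1 passed the adjusted test only where arrays were weighted by their estimated precision. With a strong prior on the weights, chosen after seeing the data, the adjusted p in limma was 0.0315 for Col13a1 and 0.0387 for Col14a1. Over the 21 other alternatives run for Col13a1 it was 0.390 to 0.999999, and over the 22 for Col14a1 0.152 to 0.999999.

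**Figure D3:**
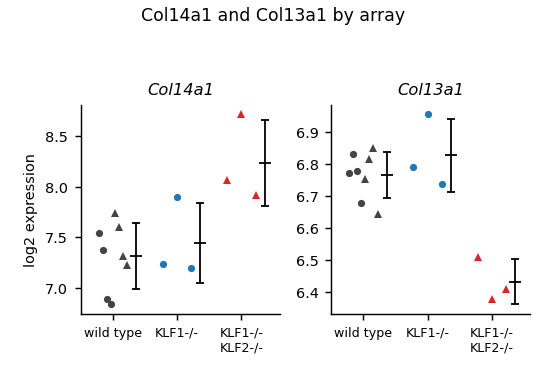
Log2 expression of Col14a1 (left) and Col13a1 (right) on the 14 arrays by genotype; circles are titles numbered 1 to 8, triangles 9 to 15, and bars are mean ± SD. The 3 labelled double-null arrays, at 7.92 to 8.72 and at 6.38 to 6.51, lie above and below all other arrays.

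Between the labelled double nulls and KLF1-/-, 0 of 46 genes were called, beside 1 of 12393 (0.00807%). Col14a1 and Col13a1 were again the 2 of 46 with an unadjusted p under 0.05 (0.597% of all genes). Arrays did not overlap for 3 of 46 (3.25% of all genes), the third being Col11a2, a dim fibrillar chain at 5.15 ± 0.08 against 5.04 ± 0.005, named after its values were seen. The median difference was 0.04 beside 0.0004 over all genes, and 30 of 46 were above 0 (50.1% of all genes). Of the bright genes 8 were above 0 with a median of 0.18, beside 47.0% and a median of −0.01 among genes at or above the 75th percentile. Without KLF1-/- replicate 6 these became 10 and 0.45, and without replicate 8 they became 5 and 0.00046. This comparison shares the KLF1-/- and labelled double-null arrays with the comparisons above. The KLF1-/- titles are all numbered 1 to 8 and the labelled double nulls 9 to 15, so number run and genotype can be told apart only through the wild-type arrays of each run.

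The laminins are described chain by chain because all but Lamb1 were outside the bright set. The alpha chains decide which receptors a laminin binds. Lama1, the alpha chain of the first embryonic laminin, ran from 5.45 through 5.77 to 6.29 in wild type, was 5.80, 6.603 and 5.75 in KLF1-/-, and was 5.92, 5.88 and 5.62 in the labelled double nulls. KLF1-/- replicate 6 was again the highest array. Lama2, of muscle laminins, ran from 6.08 through 6.22 to 6.58, was 6.78, 5.92 and 6.32 in KLF1-/-, and was 6.11, 6.12 and 6.06 in the labelled double nulls. Lama3, of epithelial laminins, ran from 4.84 through 5.05 to 5.68, was 5.23, 4.91 and 5.26 in KLF1-/-, and was 4.88, 4.54 and 5.08 in the labelled double nulls. All 3 genotypes overlapped for each of these chains.

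Lama4, the alpha chain of vessel walls, ran from 5.78 through 6.04 to 6.34 in wild type, was 5.95, 6.26 and 5.97 in KLF1-/-, and was 5.89, 5.74 and 6.02 in the labelled double nulls. Lama5 ran from 7.32 through 7.47 to 8.28, was 7.24, 6.82 and 7.69 in KLF1-/-, and was 7.21, 7.01 and 7.89 in the labelled double nulls. All 5 alpha chains had a lower mean in the labelled double nulls than in wild type, by values from −0.03 for Lama1 to −0.32 for Lama3 (SE 0.170, unadjusted p = 0.0773, adjusted p = 0.99993 in limma). The sign of Lama1 was not stable. It was above 0 in 8 of 23 alternatives, 0.11 with the number run as a term, and 4 of the 5 were then lower. Lama5 had the smallest unadjusted p of the 46 genes between KLF1-/- and wild type, at −0.40 (SE 0.248, unadjusted p = 0.132, adjusted p = 0.99982 in limma), and its other probe set differed by 0.04.

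Of the beta chains, Lamb2, which takes the place of Lamb1 in many later basement membranes, ran from 5.57 through 6.55 to 6.62 in wild type, was 6.23, 6.50 and 6.61 in KLF1-/-, and was 6.61, 6.76 and 6.53 in the labelled double nulls. Its low wild-type arrays were replicates 1 and 2, at 5.80 and 5.57. Lamb3 ran from 4.66 through 5.09 to 5.44, was 5.26, 4.44 and 5.30 in KLF1-/-, and was 4.87, 4.82 and 5.08 in the labelled double nulls. Lamc1, the common gamma chain, ran from 6.58 through 6.81 to 7.43, was 6.61, 7.13 and 6.98 in KLF1-/-, and was 6.80, 7.01 and 7.01 in the labelled double nulls. Lamc3 ran from 6.41 through 6.52 to 6.78, was 6.45, 6.31 and 6.53 in KLF1-/-, and was 6.51, 6.36 and 6.65 in the labelled double nulls. No beta or gamma chain differed from wild type by more than 0.30 in either mutant group, the value of Lamb2 in the labelled double nulls (SE 0.215).

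**Figure D4:**
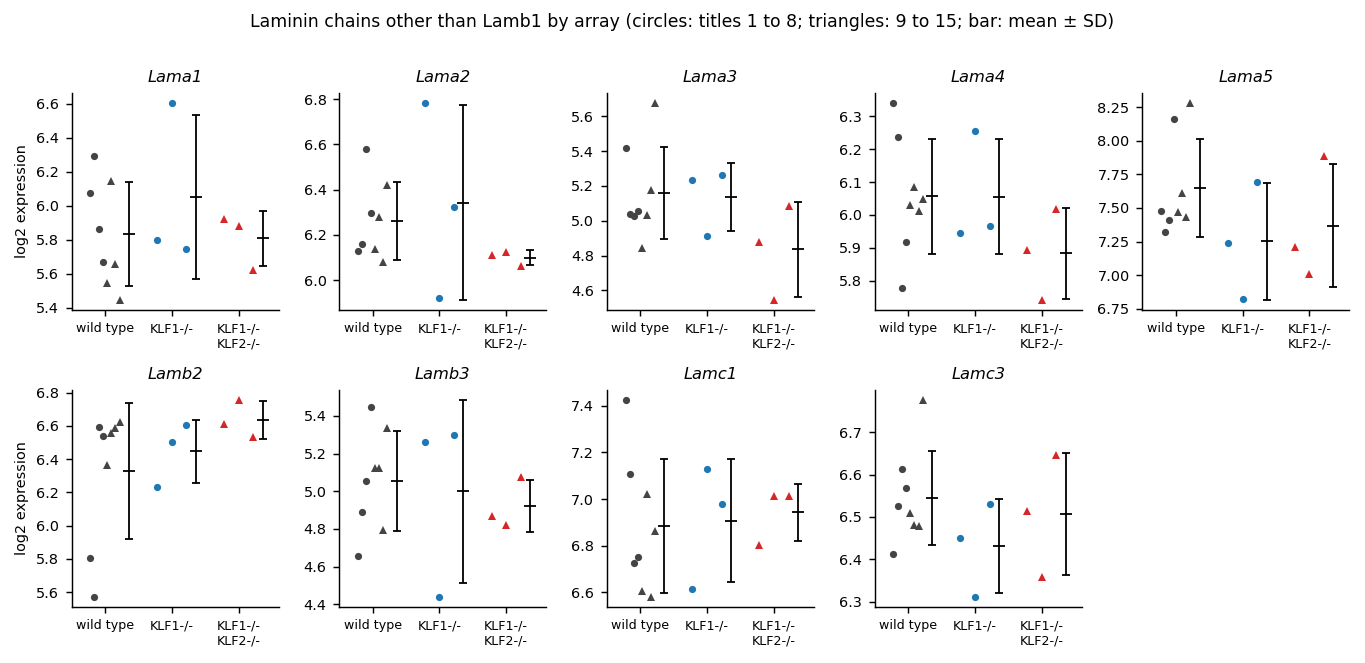
Log2 expression of the 9 laminin chains other than Lamb1 on the 14 arrays by genotype; circles are titles numbered 1 to 8, triangles 9 to 15, and bars are mean ± SD. The genotypes overlap in every panel, and the 5 alpha chains have lower means in the labelled double nulls than in wild type, which for Lama1 turns with a term for the number run.

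The other 25 chains lie outside the bright set, the laminins and the pair above. Between KLF1-/- and wild type their differences ran from −0.31 for Col11a1 to 0.30 for Col4a2, and between the labelled double nulls and wild type from −0.16 for Col2a1 to 0.42 for Col11a1. Between the labelled double nulls and KLF1-/- they ran from −0.32 for Col4a2 to 0.73 for Col11a1, whose interval reached 1.92. None was called, and the smallest unadjusted p was 0.145, 0.211 and 0.205. Col11a1, a minor fibrillar chain just under the bright limit with a mean of 8.26 and named after its values were seen, had the widest spread of the 46 genes, 2.28 over the 14 arrays. It was 7.20, 8.70 and 7.87 in KLF1-/-, 8.96, 9.43 and 7.59 in the labelled double nulls, and 7.27 to 9.48 in wild type.

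The range of the wild-type arrays was larger than any genotype difference of a bright gene, though a range of single arrays and a difference of means are unlike measures. By SD, the differences of Col18a1 from wild type, 0.253 and 0.286, exceeded its wild-type SD of 0.2465. For the other bright genes both differences lay inside the wild-type SD. The wild-type range of the 10 genes was 0.62 (Col5a1) to 2.11 (Col4a5), ratios of 1.54 to 4.32, and was 2.46 to 13.8 times the larger of the pair of differences from wild type. Wild-type replicate 1 was the highest of all 14 arrays for 6 of the 10 genes, KLF1-/- replicate 6 for 3 and labelled double-null replicate 14 for 1. The lowest array was wild-type replicate 4 for 7 genes, replicate 12 for 2 and replicate 11 for 1. The same arrays ended the range of the mesenchyme markers, whose mean was 7.70 on wild-type replicate 1 and 7.15 on replicate 4. The median wild-type SD was 0.47 for the bright genes and 0.38 for genes at or above the 75th percentile, and 0.26 for all 46 beside 0.25 for all genes.

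The title numbers were also set against the wild-type levels. Wild-type Col4a5 arrays numbered 9 to 12 were 0.94 lower than those numbered 1 to 4 (unadjusted p = 0.0366, adjusted p = 0.644 in limma), the single gene of the 46 with an unadjusted p under 0.05 there, beside 7.49% of all genes. With the number run as a block in the fit, Col4a5 was at −0.62 in KLF1-/- and 0.55 in the labelled double nulls, in place of −0.15 and 0.08. The labels do not say whether the number runs are batches.

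Chains that share a trimer had correlated levels over the 14 arrays, and so did chains that do not share one. Relations of 6 chain pairs, and of each first chain with the array's interquartile range, a measure of how widely an array's values spread, were computed as a family of 12, with permutation tests of 100000 resamples and Benjamini-Hochberg adjustment. Col4a1 and Col4a2 gave Pearson r = 0.921 (permutation p = 1e-05, the smallest these resamples give, adjusted 0.00012) and Spearman rho = 0.909 (permutation p = 3e-05, adjusted 0.00036). Without the 2 arrays farthest from the median of Col4a1, KLF1-/- replicate 6 and wild-type replicate 12, r was 0.867. Within titles 1 to 8 it was 0.962 and within 9 to 15 it was 0.904. The other Col4a1 probe set, which varied less, was not used in these relations.

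For the type I pair Col1a1 and Col1a2, r was 0.783 (permutation p = 0.0007, adjusted 0.0014) and rho 0.829 (p = 0.00036, adjusted 0.00144). Its r was 0.790 when the 2 arrays farthest from its first chain's median were dropped, and 0.868 and 0.878 inside the number runs. For the type V pair Col5a1 and Col5a2, r was 0.830 (permutation p = 0.0004, adjusted 0.0014) and rho 0.851 (p = 0.00023, adjusted 0.00138). Its r was 0.856 with its own 2 farthest arrays dropped, and 0.857 and 0.813 inside the runs. For the type VI pair Col6a1 and Col6a2, r was 0.728 (permutation p = 0.00321, adjusted 0.00482) and rho 0.660 (p = 0.0114, adjusted 0.0195). Its r was 0.744 with its own farthest arrays dropped, and 0.871 and 0.582 inside the runs. The collagen pairs thus kept a positive r in each run. For the type I and type V pairs, such values were not particular to partners. Among the other 43 pairs that the 10 bright genes form, r was above 0 in 43, with a median of 0.826, from 0.469 (Col1a2 with Col4a5) to 0.959 (Col3a1 with Col5a2), and it exceeded that of Col1a1 with Col1a2 in 25. These pairs share arrays and genes, so the values are a description, with no test. The bright genes hold no Col4a2, Col6a1 or Col6a2, so the type IV and VI pairs were not set against other pairs.

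For Lama1 and Lamb1, r was 0.794 (permutation p = 0.00069, adjusted 0.0014) and rho was 0.767 (p = 0.00191, adjusted 0.00458). Its r was 0.742 with its own farthest arrays dropped, and 0.767 and 0.857 inside the runs. For Lamb1 and Lamc1 they were 0.683 (permutation p = 0.00647, adjusted 0.00863) and 0.587 (p = 0.0295, adjusted 0.0428), with 0.733 and 0.455 within runs. Without KLF1-/- replicate 6 and wild-type replicate 1 the r of that pair was 0.454 (permutation p = 0.137), so the relation rests on those arrays.

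The array's interquartile range, from 2.31 to 3.12, moved with several of these chains. Its r was 0.797 with Col4a1 (permutation p = 0.00058, adjusted 0.0014; rho 0.758, p = 0.00275, adjusted 0.0055) and 0.656 without the farthest arrays. With Lama1 it was 0.744 (permutation p = 0.00252, adjusted 0.00432; rho 0.582, p = 0.0321, adjusted 0.0428) and 0.380 without them, so that relation rests on KLF1-/- replicate 6 and wild-type replicate 2. Col6a1 ran the other way, at −0.880 (permutation p = 6e-05, adjusted 0.00036; rho −0.832, p = 0.00055, adjusted 0.00165) and −0.800 without the farthest arrays. For Lamb1 it was 0.564 (permutation p = 0.0354, adjusted 0.0424; rho 0.385, p = 0.176, adjusted 0.193) and 0.319 without the farthest arrays, so it rests on KLF1-/- replicate 6 and wild-type replicate 1. For Col5a1 it was 0.471 (permutation p = 0.0895, adjusted 0.0976; rho 0.301, p = 0.294, adjusted 0.294) and for Col1a1 0.388 (permutation p = 0.171, adjusted 0.171; rho 0.411, p = 0.145, adjusted 0.174), and neither passed.

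Quantile normalization, which gives all arrays the same distribution, left r at 0.755 for the Col4a1 pair, 0.649 for Col1a1, 0.584 for Col5a1, 0.832 for Col6a1, 0.624 for Lamb1 with Lamc1 and 0.401 for Lama1 with Lamb1. The Lama1 pair no longer passed (permutation p = 0.155, adjusted 0.186).

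**Figure D5:**
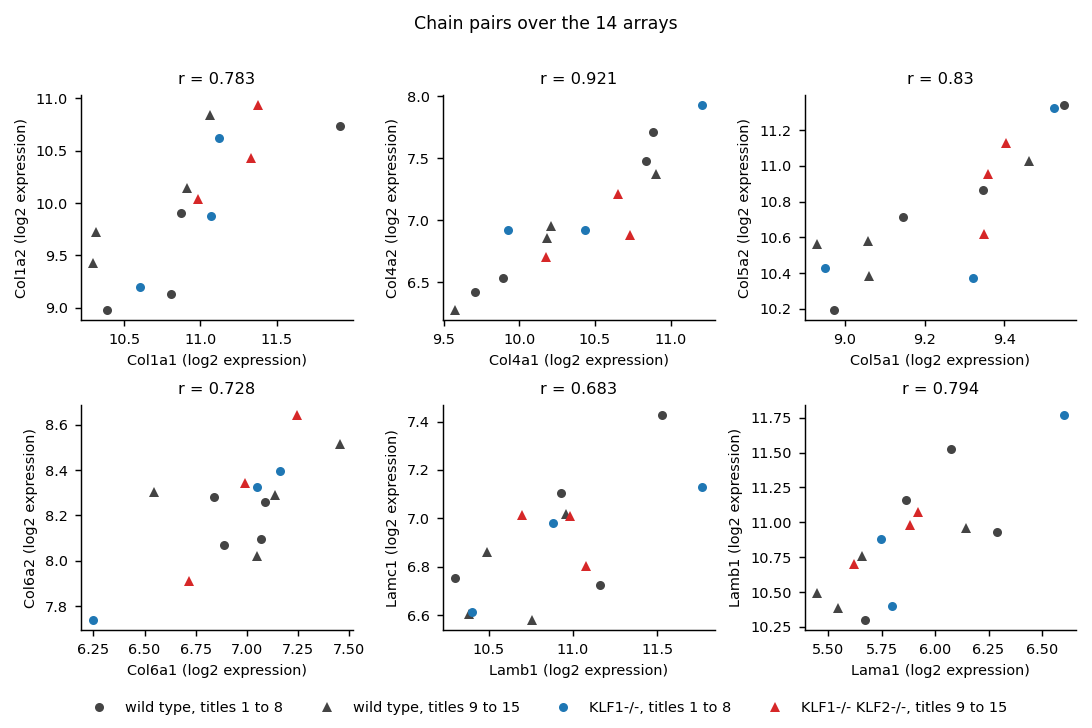
Log2 expression of 1 chain against its partner for 6 chain pairs, 1 point per array (colour, genotype; circles, titles 1 to 8; triangles, 9 to 15), with Pearson r above each panel. Col4a1 and Col4a2 lie closest to a line, at r = 0.921, and genotypes are mixed along each cloud.

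Genes that act on collagens and laminins gave 0 calls in any of the 3 comparisons, with 62 of 75 listed genes measured. Their smallest adjusted p was 0.99982, 0.99993 and 0.99995 in limma, in the order of the comparisons above, and 2, 3 and 0 of them had an unadjusted p under 0.05. Of each list, the genes with the smallest p are named. Of the genes that fold, modify and cross-link collagen, 21 of 28 were measured, with a median difference of 0.08 in KLF1-/- and 0.13 in the labelled double nulls. In KLF1-/- they were P3h3, a collagen prolyl 3-hydroxylase, at 0.28 (SE 0.101), and Mia3, which loads collagen for export, at 0.47 (SE 0.316). In the labelled double nulls they were the cross-linking oxidase Loxl1, at 0.36 (SE 0.162), and the procollagen protease Tll1, at 0.16 (SE 0.114). Between the mutants they were Loxl3, another such oxidase, at −0.26 (SE 0.176), and Loxl1, at 0.28 (SE 0.195).

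Of 12 other basement membrane genes 11 were measured, with medians of 0.06 in KLF1-/- and −0.06 in the labelled double nulls. Sparc, which binds collagen IV, had a wild-type mean of 10.05 ± 0.50, a KLF1-/- mean of 10.40 ± 0.52 and a labelled double-null mean of 10.71 ± 0.26, so that the mutants were 0.35 and 0.65 above wild type (SE 0.290 each). Nid2, a laminin-binding nidogen, differed by 0.50 in KLF1-/- (SE 0.255) and by −0.39 between the mutants (SE 0.307). The netrin Ntn4 differed by −0.14 in the labelled double nulls (SE 0.154) and by −0.20 between the mutants (SE 0.186).

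Of 18 receptors 14 were measured, with medians of 0.04 in KLF1-/- and 0.10 in the labelled double nulls. In KLF1-/- the smallest p belonged to the collagen uptake receptor Mrc2, at 0.34 (SE 0.159), and the syndecan Sdc4, at 0.54 (SE 0.314). In the labelled double nulls it belonged to Sdc1, another syndecan, at 0.34 (SE 0.285), and the laminin receptor chain Itga6, at 0.40 (SE 0.341). Between the mutants it belonged to Itga3, another laminin receptor chain, at 0.20 (SE 0.138), and Mrc2, at −0.16 (SE 0.191). Of 17 proteases and inhibitors 16 were measured, with medians of 0.01 and 0.07. Timp3, a matrix-bound protease inhibitor, at 0.46 (SE 0.206), and the gelatinase Mmp2, at 0.24 (SE 0.203), had the smallest p in KLF1-/-. Mmp9, the other gelatinase, and the inhibitor Timp1 had it in the labelled double nulls, at 0.33 (SE 0.136) and 0.16 (SE 0.108), and between the mutants, at 0.29 (SE 0.163) and 0.16 (SE 0.130).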

How the data were processed

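Per the labels' protocols, sections of 8 µm were laser-captured and 10 to 20 ng of total RNA was amplified in 2 cycles primed at the poly(A) tail, which favours 3′ ends, and hybridised to 1 Affymetrix mouse array per sample. The authors deposited log2 expression values per probe set, made with GCOS, RMA, affy and limma (versions not stated), per the submitters' processing notes. RMA subtracts background, normalizes and summarises probes, and it compresses weak differences. Array medians ran from 6.55 to 6.66, no pair of arrays held identical values, and their number limits the precision. The values were used as deposited.

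Of 22690 probe sets, 64 were controls, and the platform annotation gave 1 gene for 20380, several for 691 and none for 1555. Of the 46 genes, 22 have 1 such probe set and 24 several, 74 in all. A model of genotype means over all 14 arrays and 12393 genes was fitted with limma 3.58.1 in R 4.3.3 (lmFit, eBayes, two-sided). Benjamini-Hochberg adjustment ran over all genes, and adjusted p-values under 0.05 were taken as calls. P-values measure the spread between replicates that may share litters. Figures and permutation tests used Python 3.11.15, scipy 1.17.1 and matplotlib 3.10.9. On simulated data for KLF1-/- minus wild type (12393 genes, independent noise), the test found 98%, 70%, 80% and 94% of the 50 genes shifted by each of −2, −1, 1 and 2, beside 7 unshifted ones. The shifted genes were drawn from all genes, whose median wild-type SD was 0.25, beside 0.47 for the bright genes. These shares therefore do not give the power for the bright genes. In the deposited values Klf1 differed by −1.22 in KLF1-/- and was not called (adjusted p = 0.99982 in limma).

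The members and lists were chosen with earlier results of these data known. Named with values were the bright genes, every laminin, up to 3 genes per direction under an unadjusted p of 0.05, and the 2 smallest p of each related list; Col11a1 and Col11a2 were picked after their values were seen. Alternatives were the number run of the titles as a block or alone, other probe set rules, a filter on dim genes, quantile normalization, robust variances, array weights and leaving out each array; array weights with a strong prior were added after seeing the data.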

Additional observations from a re-analysis of the deposited data

Results flagged for a closer look

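Among the 46 genes tested in the 8 wild-type arrays, 4 had an end array whose gap to its neighbour was large for the range, above a critical share of 0.526, which chance gives in about 1 group of 20. Col1a1 was 11.92 on replicate 1, the next array being at 11.06. Col22a1, a collagen of tissue junctions, was 6.836 on replicate 3, with the next at 6.24. Col25a1, a membrane collagen, was 7.636 on the same array, with the next at 7.268. Col7a1, of anchoring fibrils, was 6.002 on replicate 9, with the next at 6.262.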

How the results depend on the processing

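The count of 0 collagen and laminin genes called in each comparison held with the number run as a block, the genotypes compared alone, every probe set, the mean of probe sets, dim genes left out, quantile normalization, robust variances and each array left out (0 genes each time). It also held within one number run alone for the comparisons with wild type; the mutants lie in different runs, so their comparison could not be run that way. Array weights changed it. Planned weights, whose estimation did not converge and which ran from 0.1725 to 58.71, called 1 (Col4a3), 10 and 27 of the 46 in the order KLF1-/- and labelled double null against wild type and labelled double null against KLF1-/-, beside 353, 2347 and 6029 of all genes. With a strong prior (0.2467 to 4.504, added after seeing the data) the counts were 0, 2 and 0, the 2 being Col13a1 and Col14a1, beside 102 genes in that comparison. The related lists kept 0 calls with the block and with quantile normalization.

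By Pearson's r, chain correlations lost their adjusted call within titles 9 to 15 for Col1a1 (0.878), Col4a1 (0.904), Col5a1 (0.813), Col6a1 (0.582), Lamb1 with Lamc1 (0.455) and Lama1 with Lamb1 (0.857), where 7 arrays were left. They lost it within titles 1 to 8 for Lamb1 with Lamc1 (0.733) and Lama1 with Lamb1 (0.767), without the farthest arrays for Lamb1 with Lamc1 (0.454), and with quantile normalization for Lama1 with Lamb1 (0.401). With the interquartile range, calls were lost within titles 9 to 15 for Col4a1 (0.659), Col6a1 (−0.903), Lamb1 (0.340) and Lama1 (0.468), within titles 1 to 8 for Lamb1 (0.663), without the farthest arrays for Lamb1 (0.319) and Lama1 (0.380), and with quantile normalization for Col4a1 (0.523) and Lamb1 (0.066). By Spearman's rho the call held within titles 9 to 15 for Col1a1 (adjusted permutation p 0.0405), Col4a1 (0.0492) and Col6a1 with the interquartile range (0.0405). It was lost, where r kept it, within titles 1 to 8 for Col5a1 (0.0819), Col6a1 (0.182), Col6a1 with the interquartile range (0.151) and Lama1 with it (0.133), without the farthest arrays for Col4a1 with it (0.0644), and with quantile normalization for Col5a1 (0.116) and Lamb1 with Lamc1 (0.113). Beyond the fewer arrays, the cause was not tested. No paired analysis was possible because the genotypes share no replicate numbers. With 3 arrays per mutant, the 95% intervals of the bright genes against wild type reached from −1.12 to 1.45.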
